A study of Mus musculus with 6 samples.

Results

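Fc receptors bind the constant region of antibodies and pass that contact on to the cell that carries them. The 8 mouse genes described here were taken by symbol from the RNA-seq table, and all 8 were found among its 34199 gene symbols. They are the IgG receptors Fcgr1, Fcgr2b, Fcgr3 and Fcgr4, the signaling chain Fcer1g, the IgE receptors Fcer1a and Fcer2a, and Fcgrt, the neonatal Fc receptor. The study asked how loss of DNA methyltransferase 3b, one of the enzymes that place new methyl groups on DNA, shapes blood cancers in mice. Total RNA was sequenced from 3 independent peripheral T-cell lymphomas (PTCL) taken from lymph node, called tumors 1, 2 and 3 below. All came from FVB mice of the genotype Dnmt3b+/-, in which 1 allele of Dnmt3b is knocked out in the germline, in all cells. Per the study, the lymphomas arose spontaneously and mice were collected when terminally sick. The age of each mouse was not given in the sources used here. These 3 tumors form a single group, so no comparison between genotypes was made, and libraries of normal T cells or of other genotypes were not analysed here.

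Activating Fc receptors signal through an immunoreceptor tyrosine-based activation motif (ITAM), which Fcgr1, Fcgr3, Fcgr4 and Fcer1a borrow from the FcR gamma chain encoded by Fcer1g. Fcgr2b carries the opposing inhibitory motif (ITIM), which recruits phosphatases and dampens activation. In lymphoid tissue the IgG receptors are known mainly from macrophages, monocytes, dendritic cells and neutrophils, Fcgr2b also from B cells, Fcer1a from mast cells and basophils, and Fcer2a (CD23) from B cells, while most T cells carry little of them. Fcgrt encodes the heavy chain of FcRn, which returns IgG and albumin from endosomes to the cell surface and is found in many cell types.

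Expression was given as FPKM, reads scaled to exon length and library depth, which allows genes to be set beside each other. From the value held by genes without a read, the depth behind the 3 columns came to 30726570, 18969988 and 20770928 counted reads in tumors 1, 2 and 3, and the reads behind each gene could be recovered. A gene without a read was listed at the FPKM of 0.9 read, and a count of 0 was taken to allow up to 3 reads. Intervals given with FPKM are exact 95% Poisson intervals of the recovered reads and cover counting error only. The sources used here do not say whether reads or read pairs were counted, and if both mates of a pair were counted, the intervals are too narrow.

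T-cell transcripts were described first, which without a normal lymph node library is no check of the lymphoma label. All 12 T-cell markers were at 1 FPKM or more in every tumor. By mean level they were led by Cd8b1 (435, 166 and 443 FPKM), Cd8a (259, 122 and 218 FPKM) and Lck (160, 208 and 207 FPKM). In tumor 2 alone, Trbc1 was the highest of them (284 FPKM). Cd4 was below Cd8a in each tumor, at 28.4, 4.28 and 8.22 FPKM. The summed level of the 12 markers was 1773, 1498 and 1811 FPKM. Dnmt3b itself stood at 0.975, 1.55 and 1.25 FPKM, which without a wild-type library is no check of the genotype. Markers of other cell types had reads too, and no sorting step was stated for the RNA-seq samples. In bulk samples fewer cells of a type and less RNA per cell cannot be told apart.

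The Fc receptor genes fell into 3 patterns over the tumors. The IgG receptors, Fcer1g and Fcer1a were highest in tumor 1, Fcer2a was highest in tumor 3, and Fcgrt was high and nearly even. Of the 8 genes, 6 had a mean of at least 1 FPKM, against 32.7% of all genes, and 7 were covered by at least 1 read in every tumor, against 47.9% of all genes with an exon length. Without tumor 1, 3 of the 8 means stayed at or above 1 FPKM, and the share of all genes without that tumor is not given here. By mean level the order was Fcgrt, Fcer1g, Fcgr3, Fcer2a, Fcgr4, Fcgr1, Fcgr2b and Fcer1a. Fcgrt stood apart, its lowest tumor (46.9 FPKM) lying above the highest of Fcer1g (13.9 FPKM). The ranges of every later pair of neighbours overlapped, although Fcer1g was above Fcgr3 and Fcgr2b above Fcer1a within each of the 3 tumors. For Fcgr2b and Fcer1a the counting intervals overlapped in tumor 1 (1.32 to 1.68 and 1.01 to 1.89 FPKM).

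**Figure D1:**
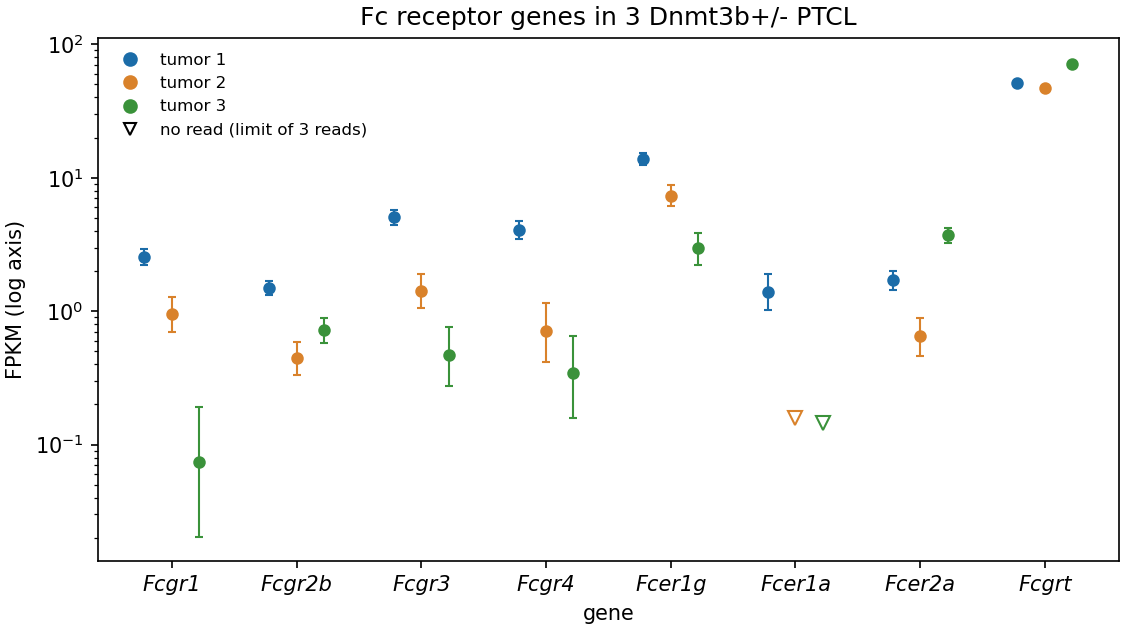
FPKM of the 8 Fc receptor genes (log axis) in each of the 3 tumors, with exact 95% Poisson intervals of the recovered reads as bars. Open triangles mark tumors without a read, drawn at the level of 3 reads. Fcgrt lies between 46.9 and 71.8 FPKM, and the IgG receptors and Fcer1g are highest in tumor 1.

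Of the 8 genes, 6 were highest in tumor 1, where 49.9% of all genes with a mean of at least 0.2 FPKM were also highest. None was highest in tumor 2 (33.5% of all genes), and 2 were highest in tumor 3 (15% of all genes). At least a 2-fold gap between the highest and the lowest tumor was seen for 7 of the 8, against 43.1% of all genes, the exception being Fcgrt. All 8 passed the filter of 0.2 FPKM on the mean, Fcer1a through tumor 1 alone. Of the 7 genes with a read in every tumor, 5 were highest in tumor 1 and 6 had a 2-fold gap. The shares of all genes under that filter are not given here. The tumors differed slightly in scale: over 9711 genes above 1 FPKM in every tumor, the median log2 difference of tumor 1 minus tumor 3 was 0.20, and it was 0.44 after rescaling each column to the same sum. With either that rescaling or median-of-ratios factors, 6 of the 7 genes with a read in every tumor had the same order of tumors, and only the order of tumors 1 and 2 for Fcgrt turned with the factors.

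**Figure D2:**
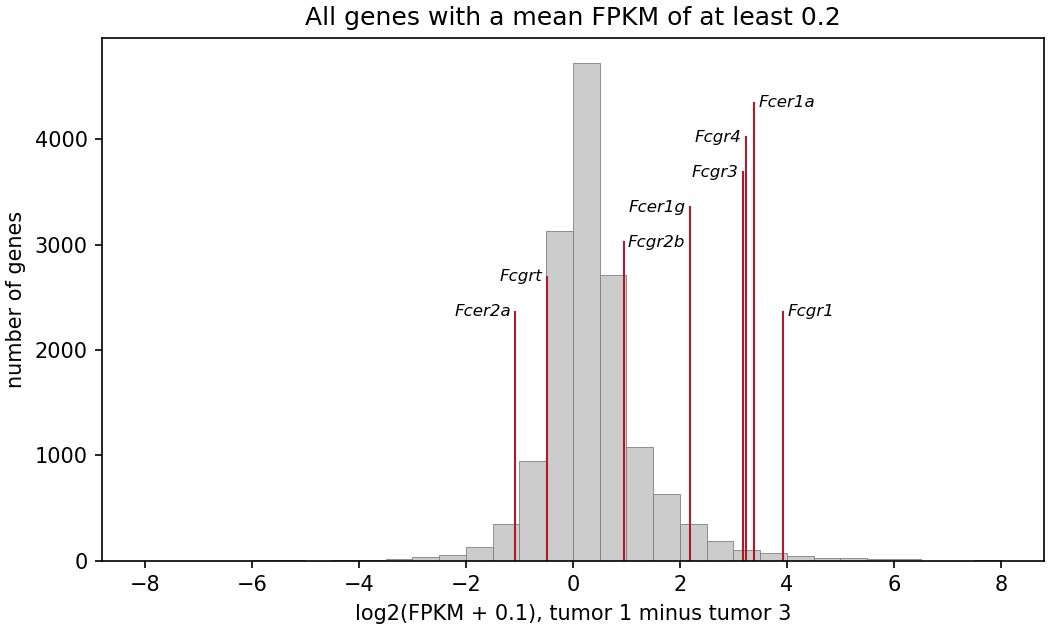
Distribution over 14722 genes of the difference in log2(FPKM + 0.1), tumor 1 minus tumor 3 (x axis), with the number of genes per bin of 0.5 on the y axis. Red lines mark the 8 Fc receptor genes, from Fcer2a (-1.08) to Fcgr1 (3.93).

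Fcgr1 encodes the high-affinity IgG receptor. It lies on the minus strand at chr3:96282909-96293969 (GRCm38, ENSMUSG00000015947). Its level was 2.55 FPKM in tumor 1 (203 reads), 0.957 FPKM in tumor 2 (47 reads) and 0.0744 FPKM in tumor 3 (4 reads), with a mean of 1.19 ± 1.26 FPKM (SD, n = 3). The gap between tumors 1 and 3 was 34.3-fold with a 95% counting interval of 13.2 to 127. Left without tumor 1, the mean was 0.516 FPKM.

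Fcgr3, the low-affinity activating receptor, lies at chr1:171051174-171064935 on the minus strand (ENSMUSG00000059498). Its level was 5.04 FPKM in tumor 1 (269 reads), 1.43 FPKM in tumor 2 (47 reads) and 0.471 FPKM in tumor 3 (17 reads). Fcgr4, a receptor of intermediate affinity, lies on the plus strand at chr1:171018920-171029761 (ENSMUSG00000059089). It reached 4.07 FPKM in tumor 1 (157 reads), 0.713 in tumor 2 (17 reads) and 0.345 in tumor 3 (9 reads). Both were thus highest in tumor 1, 10.7-fold (interval 6.56 to 18.6) and 11.8-fold (6.06 to 26.3) above tumor 3. Tumors 2 and 3 were less clearly apart for Fcgr4, where the 95% counting intervals of the level were 0.416 to 1.14 FPKM and 0.158 to 0.655 FPKM. The means were 2.31 ± 2.41 FPKM for Fcgr3 and 1.71 ± 2.05 FPKM for Fcgr4 (SD, n = 3), and 0.949 and 0.529 FPKM without tumor 1.

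The promoters of the 8 genes were searched for 3 short motifs known from myeloid and mast cell genes. GAGGAA is the core bound by the myeloid factor PU.1, TTCNNNGAA the interferon-gamma activated site, and AGATAA the site of factors of the GATA family. Both strands were searched in the RefSeq promoters (GRCm38.p6), which run from 250 bases before to 50 bases after each start site, and all 8 genes had an entry. Over all 32851 promoters of the same length, 28.3% held GAGGAA, 8.30% TTCNNNGAA and 11.2% AGATAA. Fcgr1, Fcgr3, Fcgr4 and Fcer1a each held GAGGAA, Fcgr1 also TTCNNNGAA and Fcer1a also AGATAA, and no matches overlapped. The sequences run 5′ to 3′ on the strand of the gene up to the last base before the start site, with matches in capitals. They lie at chr3:96293970-96294098 (Fcgr1, minus strand), chr1:171059395-171059429 (Fcgr3, the more downstream of 2 start sites, minus strand), chr1:171018884-171018925 (Fcgr4, plus strand) and chr1:173227230-173227465 (Fcer1a, minus strand).
Fcgr1: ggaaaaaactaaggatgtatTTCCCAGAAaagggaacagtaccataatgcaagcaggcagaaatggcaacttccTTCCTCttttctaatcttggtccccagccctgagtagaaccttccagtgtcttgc
Fcgr3: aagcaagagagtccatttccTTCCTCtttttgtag
Fcgr4: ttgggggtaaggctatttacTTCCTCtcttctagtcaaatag
Fcer1a: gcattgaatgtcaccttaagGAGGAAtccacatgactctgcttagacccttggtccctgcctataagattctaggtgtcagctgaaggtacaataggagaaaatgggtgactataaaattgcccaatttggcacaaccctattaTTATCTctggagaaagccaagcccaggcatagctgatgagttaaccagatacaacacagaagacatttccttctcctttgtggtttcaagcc

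In Fcgr1, Fcgr3 and Fcgr4 the GAGGAA match is on the opposite strand and reads TTCCTC, within the last 55 bases before the start site. The promoters of Fcgr2b, Fcer1g, Fcer2a and Fcgrt held none of the 3 motifs, although Fcgr2b and Fcer1g were highest in tumor 1 too. A match is a description of the sequence, and binding was not measured. Spi1, which encodes PU.1, gave 5.87, 2.17 and 1.43 FPKM, and Gata2, a GATA factor of mast cells, gave 0.181, 0.0293 and 0.00892 FPKM (30, 3 and 1 reads). Gata1, a more abundant GATA factor that mast cells also use, gave 8.62, 4.97 and 0.296 FPKM (646, 230 and 15 reads). All 3 were highest in tumor 1, as were 49.9% of all genes with a mean of at least 0.2 FPKM, a filter that Gata2 does not pass. Gata1 kept 230 reads in tumor 2, where Fcer1a had no read. The part of these factors in the receptor levels was not tested.

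Fcgr2b, the inhibitory IgG receptor, lies at chr1:170958617-170976547 on the minus strand (ENSMUSG00000026656). Its level was 1.49, 0.446 and 0.723 FPKM in tumors 1, 2 and 3 (265, 49 and 87 reads), with a mean of 0.886 ± 0.540 FPKM (SD, n = 3) and 0.585 FPKM without tumor 1. Tumor 1 was again highest, but tumor 2 rather than tumor 3 was lowest, and the gap between them was 3.34-fold (interval 2.45 to 4.63). Fcgr2b and Fcgr3 resemble each other in sequence. Of the 100-base words in the exons of Fcgr3, 1.52% also occurred in Fcgr2b, and no other of the 28 pairs of these genes shared a word.

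Within a tumor, the balance of inhibitory to activating receptor mRNA does not depend on how the library is scaled. Fcgr2b relative to the sum of Fcgr1, Fcgr3 and Fcgr4 came to 0.128 in tumor 1, 0.144 in tumor 2 and 0.812 in tumor 3. The summed activating receptor level was 11.7, 3.10 and 0.891 FPKM, and the ratio was highest in tumor 3. The mean ratio was 0.361 ± 0.390 (SD, n = 3) and 0.136 without tumor 3. Leaving Fcgr3 out of the sum gave 0.225, 0.267 and 1.73, and a pseudocount of 1 gave 0.197, 0.353 and 0.911, with the same tumor highest in both. Fcgr2b made up 11.3%, 12.6% and 44.8% of the FPKM of the 4 IgG receptors, and Fcgr1 made up 19.4%, 27.0% and 4.61%.

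**Figure D3:**
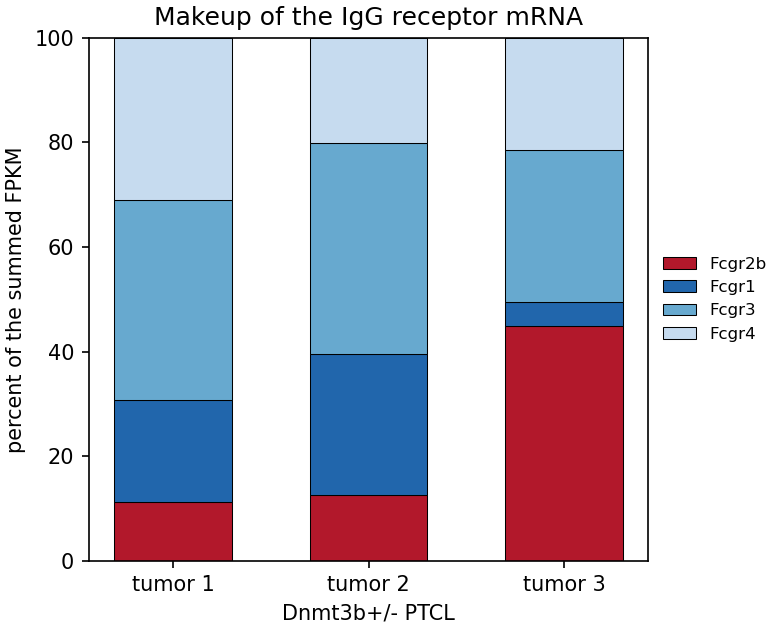
Percent of the summed FPKM of the 4 IgG receptors (y axis) taken by each receptor in tumors 1, 2 and 3. The inhibitory receptor Fcgr2b, in red, takes 11.3%, 12.6% and 44.8%.

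Markers of macrophages and monocytes moved with the activating receptors. Of 17 such markers, 14 were highest in tumor 1, as were 49.9% of all genes, and 13 were also lowest in tumor 3. The latter order was found in 21.2% of all genes and in 4 Fc receptor genes (Fcgr1, Fcgr3, Fcgr4 and Fcer1g). Csf1r gave 20.7, 3.72 and 2.36 FPKM, C1qa gave 74.5, 24.1 and 1.44 FPKM, and Lyz2 gave 215, 33.1 and 20.3 FPKM. The exceptions among the 17 were Ly6c2, Ccr2 and Cd68, all highest in tumor 2, and Itgam, lowest there, and none of the 17 was without a read in any tumor. The summed level was 607, 957 and 408 FPKM. In tumors 2 and 3 most of it came from Ly6c2 (9.64, 750 and 335 FPKM), a gene that activated CD8+ T cells also express. In tumor 1 Lyz2 was the most abundant of the 17. Without Ly6c2 the sum was 597, 207 and 73.4 FPKM. The median log2 difference of tumor 1 minus tumor 3, on the log2(FPKM + 0.1) scale, was 3.33 over the markers, 3.17 over the 4 IgG receptors with Fcer1g, and 0.28 over all genes with a mean of at least 0.2 FPKM. The part of these cells in the receptor levels was not tested.

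Set against Csf1r in the same tumor, Fcgr1, Fcgr3 and Fcgr4 varied less than by their own levels, and Fcgr2b did not. The ratio of Fcgr4 to Csf1r was 0.197, 0.192 and 0.146, and that of Fcgr3 to Csf1r was 0.244, 0.383 and 0.20. The ratio of Fcgr1 to Csf1r was 0.123, 0.257 and 0.0316, the last resting on 4 Fcgr1 reads, and that of Fcgr2b to Csf1r was 0.0720, 0.120 and 0.307. The picture for the activating receptors depended on the marker. Over the 17 markers the ratio of Fcgr1 was lowest in tumor 3 for 11 and highest there for 4, among them C1qa (0.0343, 0.0397 and 0.0518). The ratio of Fcgr3 was lowest there for 6 and highest for 8, and that of Fcgr4 lowest for 5 and highest for 7. The ratio of Fcgr2b was highest in tumor 3 for 15 of the 17.

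Other cells that carry IgG receptors also had markers with reads, whose sums do not measure how many cells there were. The 10 neutrophil markers summed to 42.3, 1.75 and 18.2 FPKM, mostly from S100a9 (22.6, 1.01 and 10.4 FPKM). Of the 10, 8 were highest in tumor 1 (49.9% of all genes). Elane had no read in any tumor, and Ly6g and Mpo had 1 read each, in tumor 1. The 7 dendritic cell markers summed to 11.2, 7.28 and 4.36 FPKM, with 4 highest in tumor 1 (49.9% of all genes). Itgax led by mean level (3.18, 1.47 and 0.762 FPKM), while Clec9a led in tumor 2 (2.29 FPKM) and Xcr1 in tumor 3 (0.973 FPKM). The 6 NK cell markers summed to 22.9, 79.0 and 48.8 FPKM, with 3 highest in tumor 2 (33.5% of all genes). By mean level the most abundant was Eomes (34.8 ± 13.1 FPKM, SD, n = 3), which CD8+ T cells also express. Next came Klre1 (0.242, 32.2 and 0.0551 FPKM), whose mean rests on tumor 2, and Klrb1c (0.308, 5.77 and 3.38 FPKM). Klra8 had no read in tumor 1. Without Eomes the sum was 2.84, 39.5 and 3.81 FPKM. Follicular dendritic cells, which hold immune complexes through Fcgr2b, had 5 markers summing to 41.7, 27.0 and 3.26 FPKM, led by Clu (10.6 ± 8.51 FPKM, SD, n = 3), and Cxcl13 was without a read in tumor 3. The part of these cells in the receptor levels was not tested.

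**Figure D4:**
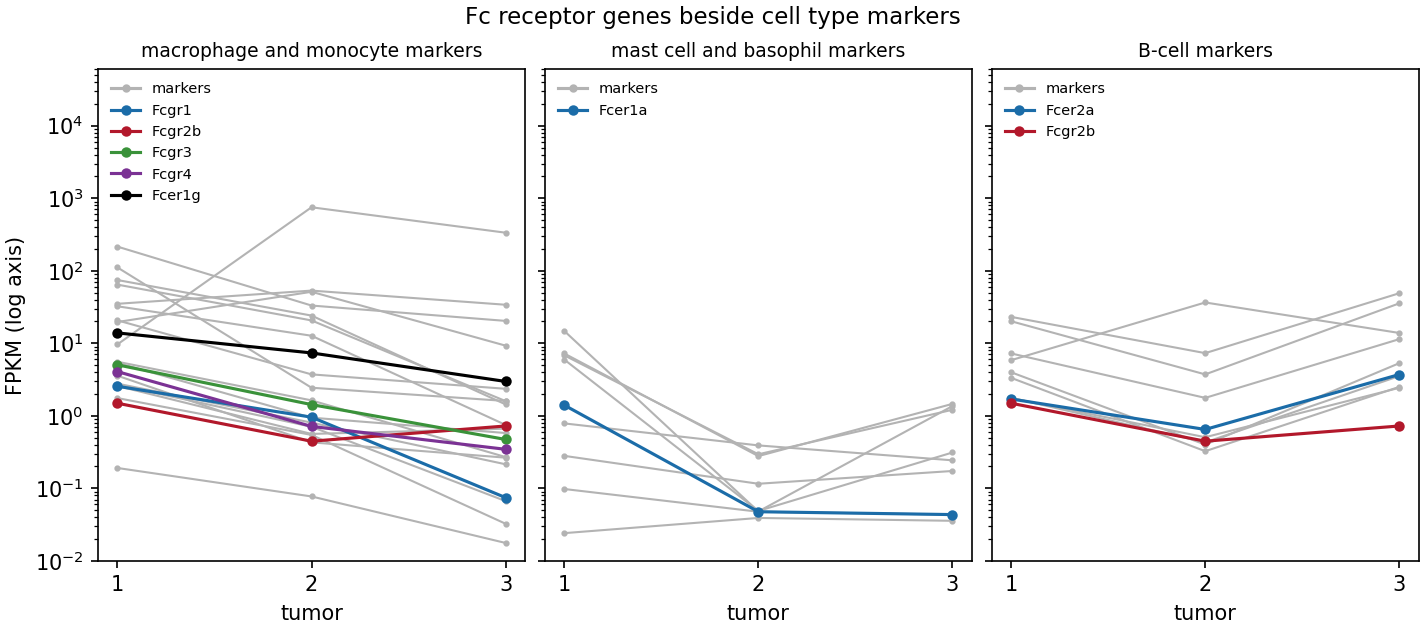
FPKM (log axis) in tumors 1, 2 and 3 of the Fc receptor genes (colored) beside markers of 3 cell types (grey); lines join the values of 1 gene, and genes without a read stand at the deposited value. Most macrophage and mast cell markers are highest in tumor 1, and 6 of 8 B-cell markers, like Fcer2a, are highest in tumor 3. Of all genes with a mean of at least 0.2 FPKM, 49.9% are highest in tumor 1 and 15% in tumor 3.

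Fcer1g, the ITAM chain that the activating receptors share, lies at chr1:171229572-171234365 on the minus strand (ENSMUSG00000058715). It reached 13.9, 7.36 and 2.97 FPKM in tumors 1, 2 and 3 (373, 122 and 54 reads), with a mean of 8.07 ± 5.49 FPKM (SD, n = 3) and 5.17 FPKM without tumor 1. It thus followed the order of its partner receptors, over a narrower range: tumor 1 was 4.67-fold above tumor 3 (interval 3.50 to 6.33). Relative to the summed FPKM of Fcgr1, Fcgr3 and Fcgr4, the chain came to 1.19, 2.38 and 3.34, a mean of 2.30 ± 1.08 (SD, n = 3). The mRNA of the chain thus exceeded that of these receptors in each tumor, most of all in tumor 3, where they were lowest.

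The same chain serves other receptors, and all 8 listed here were highest in tumor 1 (49.9% of all genes), although Oscar (4, 2 and 0 reads) and Gp6 (9, 0 and 0 reads) rest on few reads. Clec4n, which encodes Dectin-2, gave 10.2, 2.52 and 0.407 FPKM, Clec4e, which encodes Mincle, gave 2.89, 0.0425 and 0.0873 FPKM, and Cd300ld gave 1.69, 0.399 and 0.564 FPKM. The 8 summed to 17.0, 3.70 and 1.60 FPKM, so Fcer1g exceeded this sum in tumors 2 and 3 but not in tumor 1, where it did so without Clec4n (6.75, 1.17 and 1.19 FPKM). Among 9 other signaling chains, which include the CD3 and B-cell receptor chains and of which 8 carry an ITAM, only 1 was highest in tumor 1, namely Tyrobp, the DAP12 chain of myeloid and NK cells (42.0, 27.0 and 15.1 FPKM). Cd3d (143 FPKM on average), Hcst (112 FPKM), whose product DAP10 carries no ITAM, and Cd3g (92.1 FPKM) led the list. Cd247, the zeta chain of the T-cell receptor, gave 25.9, 20.9 and 32.4 FPKM, or 1.87, 2.84 and 10.9 times Fcer1g.

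Downstream of the ITAM, 12 of 19 kinases and adaptors were highest in tumor 1, where 49.9% of all genes with a mean of at least 0.2 FPKM were also highest. By mean level the most abundant were Lat (147, 82.7 and 63.3 FPKM), Pik3cd (54.0, 86.9 and 78.9 FPKM) and Fyn (48.8, 69.4 and 56.4 FPKM), all used by T-cell receptors as well. Syk, the kinase that Fc receptors recruit, stood at 3.59, 1.04 and 3.00 FPKM. On the inhibitory side, 1 of 7 genes, namely phosphatases, docking proteins and the inhibitory kinase Csk, was highest in tumor 1 and 4 in tumor 2 (33.5% of all genes). Ptpn6 (65.0, 187 and 125 FPKM), Csk (44.7, 52.3 and 56.8 FPKM) and Dok2 (11.5, 24.2 and 25.2 FPKM) led, and Inpp5d, which encodes the phosphatase SHIP1 that Fcgr2b recruits, gave 12.3, 20.7 and 18.2 FPKM. The median log2 difference of tumor 1 minus tumor 3 was 0.25 for the ITAM list and -0.36 for the ITIM list, against 0.28 over all genes with a mean of at least 0.2 FPKM.

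Fcer1a encodes the IgE-binding chain of the high-affinity IgE receptor. It lies at chr1:173221284-173227214 on the minus strand (ENSMUSG00000005339). Its level was 1.40 FPKM in tumor 1 (43 reads, interval 1.01 to 1.89 FPKM), and there was no read in tumors 2 and 3, which allows up to 0.158 and 0.145 FPKM. Against these levels of 3 reads, tumor 1 was at least 8.85-fold higher than tumor 2 and at least 9.69-fold higher than tumor 3, or 6.40-fold and 7.01-fold from the lower end of its interval. The gene was not detectable at this depth in either.

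Mast cell markers were high in the same tumor. Of 8 mast cell and basophil markers, 7 were highest in tumor 1, against 49.9% of all genes with a mean of at least 0.2 FPKM. The sum of the 8 was 36.0, 1.18 and 4.76 FPKM. Mcpt4 gave 14.8, 0.0479 and 1.36 FPKM, Cpa3 gave 7.23, 0.278 and 1.46 FPKM, and Cma1 gave 6.82, 0.294 and 1.21 FPKM. Tumor 3 thus held mast cell transcripts without a read of Fcer1a, but on few reads. Mcpt4, Cpa3 and Cma1 had 31, 46 and 27 reads there, beside 504, 337 and 228 in tumor 1. As Fcer1a had only 43 reads in tumor 1, few were to be had in tumor 3, and whether it fell below these markers was not tested. The basophil protease gene Prss34 had no read in any tumor, and Mcpt8 had 3 reads in tumor 1 and none in the others. Ms4a2, the beta chain of the same IgE receptor, did not follow Fcer1a, at 0.613, 0.487 and 0.976 FPKM. The 4 eosinophil markers were near 0, at 0.629, 0.0644 and 0.406 FPKM in sum, with Ccr3 the most abundant. The part of mast cells in the Fcer1a level was not tested.

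Fcer2a encodes CD23, the low-affinity IgE receptor, which is a C-type lectin unrelated in fold to the other receptors. It lies at chr8:3681737-3694175 on the minus strand (ENSMUSG00000005540). Its level was 1.71, 0.648 and 3.71 FPKM in tumors 1, 2 and 3 (162, 38 and 238 reads), with a mean of 2.02 ± 1.55 FPKM (SD, n = 3) and 1.18 FPKM without tumor 3. Tumor 3 was 2.17-fold above tumor 1 (interval 1.77 to 2.67) and 5.72-fold above tumor 2 (4.05 to 8.28), whereas the activating IgG receptors were lowest in tumor 3.

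B-cell markers had that order too. Of 8 markers, 6 were highest in tumor 3 and lowest in tumor 2, as were Fcer2a and Fcgrt and 8.11% of all genes. Cd79a gave 23.1, 7.31 and 49.0 FPKM, and Cd79b gave 20.1, 3.72 and 35.5 FPKM. The sum was 67.2, 51.0 and 124 FPKM, with Cd79a the most abundant gene by mean level and no marker without a read. The exceptions were Cd22, highest in tumor 2 (5.84, 36.5 and 13.9 FPKM) and most of the sum there (61.3, 14.5 and 110 FPKM without it), and Cr2, highest in tumor 1 (3.33, 0.325 and 2.50 FPKM). The ratio of Fcer2a to the median FPKM of the 8 markers was 0.347, 0.570 and 0.443, a smaller range than that of Fcer2a itself, and the ratio of Fcgr2b to that median was 0.303, 0.393 and 0.0866. The part of B cells in the Fcer2a and Fcgr2b levels was not tested.

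Other receptors for immunoglobulin and Fc receptor-like genes numbered 10, of which 4 were highest in tumor 3 (15% of all genes). Trim21, a cytosolic antibody receptor of many cell types, was the most abundant (10.2, 15.0 and 9.92 FPKM). Fcmr, the IgM receptor of B cells, gave 4.41, 1.15 and 7.65 FPKM, and Fcrl1 gave 2.78, 0.489 and 3.14 FPKM, both in the order of Fcer2a. Fcrlb had no read in any tumor. Of the antibodies themselves, 9 of 10 listed genes were not analysed here, and Jchain, which joins IgM and IgA chains, gave 814, 185 and 179 FPKM. The 5 plasma cell markers summed to 829, 189 and 209 FPKM, 96.0% of it from Jchain over the 3 tumors together. Without Jchain they summed to 14.8, 4.23 and 30.3 FPKM, and 4 of the 5 were highest in tumor 3 (15% of all genes).

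Fcgrt lies at chr7:45092990-45103851 on the minus strand (ENSMUSG00000003420). It was by far the most abundant Fc receptor gene, at 51.0, 46.9 and 71.8 FPKM in tumors 1, 2 and 3 (3292, 1872 and 3133 reads), a mean of 56.6 ± 13.3 FPKM (SD, n = 3). By its mean it stood above 98.6% of all genes and took 77.2% of the FPKM of the 8 genes. Tumor 3 was 1.53-fold above tumor 2 (interval 1.44 to 1.62), so the tumors differed beyond counting error but by far less than for the other receptors. Its partner chain B2m gave 2327, 1573 and 1781 FPKM, or 45.7, 33.5 and 24.8 times Fcgrt. In the list of B2m and 5 class I-like chains, H2-D1 (603, 1238 and 777 FPKM) and H2-K1 (231, 373 and 273 FPKM) followed. Of the 6, 3 were highest in tumor 1 (49.9% of all genes).

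Endothelial cells, a known site of FcRn, were represented by 5 markers that summed to 18.1, 14.1 and 5.10 FPKM. Pecam1 was the most abundant (12.2, 10.9 and 4.86 FPKM), 4 were highest in tumor 1 (49.9% of all genes), and Lyve1 was without a read in tumor 3. Fcgrt was highest in tumor 3, and the part of endothelial cells in its level was not tested. An antisense gene, Gm45669, overlaps Fcgrt and held 19, 37 and 10 reads, few beside those of Fcgrt. Gm38204, antisense to Fcgr2b, had no read.

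Cytokines known to alter Fc receptor levels were also uneven. Ifng, which raises Fcgr1 in macrophages, gave 8.49, 1.10 and 1.12 FPKM. Il4, which raises CD23 in B cells, gave 3.50 FPKM in tumor 1 (132 reads), no read in tumor 2 and 0.0785 FPKM in tumor 3 (2 reads). Of 9 such cytokines and receptors, 6 were highest in tumor 1 (49.9% of all genes), and the most abundant were Ifngr1 (64.1, 182 and 72.3 FPKM), Il4ra (35.0, 28.1 and 37.4 FPKM) and Tgfb1 (13.2, 19.3 and 11.6 FPKM). Among 13 lineage transcription factors, 8 were highest in tumor 1, as were 49.9% of all genes. Stat6 (23.9, 23.7 and 25.5 FPKM) and Irf8 (7.58, 12.3 and 5.38 FPKM) were among the most abundant, and the B-cell factor Pax5 gave 1.75, 0.506 and 2.43 FPKM, the order of Fcer2a. The part of these factors in the receptor levels was not tested.

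Fcgr2b, Fcgr4 and Fcgr3 lie within 106 kb of chromosome 1, and Fcer1g within 276 kb of the same start. Genes next to them did not all share their pattern. Fcrla, beside Fcgr2b, gave 2.03, 0.272 and 2.37 FPKM, while Sdhc, beyond Fcgr3, gave 10.3, 7.27 and 8.74 FPKM. Near Fcer1g, Tomm40l gave 2.69, 2.29 and 2.86 FPKM. Around Fcer1a, the olfactory receptor genes Olfr218, Olfr1404 and Olfr418 had no read in any tumor. Beside Fcer2a, Trappc5 gave 4.23, 5.61 and 4.90 FPKM, and beside Fcgrt, Rcn3 gave 1.76, 4.64 and 0.757 FPKM.

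Genes with the most similar profile were sought among 11185 genes with a mean of at least 1 FPKM, by the root mean square difference of centred log2(FPKM + 0.1) over the 3 tumors. Closest to the mean profile of the 4 IgG receptors and Fcer1g were Aif1, a macrophage gene (9.07, 3.10 and 1.35 FPKM, difference 0.02), then Emp1, Igf2bp2, Lacc1 and C5ar1, and 47 genes lay within 0.25. Closest to Fcer1a were Tesc (11.3, 0.994 and 0.999 FPKM), Usp6nl, Trgj1, Ptger3 and AC164623.1, with 14 genes within 0.25, but this profile rests on the listed value of no read in tumors 2 and 3 and on the pseudocount. Closest to Fcer2a were Trav15n-1 (1.11, 0.449 and 2.74 FPKM), Ggh, Pon3, Nccrp1 and Pecr, with 19 within 0.25, and closest to Fcgrt were Apool (2.37, 2.16 and 3.38 FPKM), Rab3ip, Gtf3c6, Lonp2 and Spidr, with 1416 within 0.25. A profile over 3 tumors is short, and with a pseudocount of 1 these lists kept 0, 0, 1 and 1 of their 5 genes.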

How the data were processed

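RNA-seq of 3 Dnmt3b+/- PTCL was used, and 3 bisulfite libraries of the series were not analysed here. Per the labels and the study's methods, the authors aligned paired-end reads to mm10 (GRCm38) with STAR, kept reads above a mapping quality limit and deposited FPKM per gene from SeqMonk. Whether counting used strand was not given in the sources used here. The members and lists were chosen with earlier results of these data known.

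Reads and depth were recovered from the FPKM with GENCODE merged exon lengths (99.6% of rows). In tumors 1, 2 and 3, 92.5%, 92.6% and 92.6% of values came out within 0.02 read of a whole number or of 0.9 read. A gene without a read held 0.9 read, and the depth was set from that value, so those genes fit by construction. They made up 42.7%, 46.4% and 48.9% of genes with an exon length in tumors 1, 2 and 3. Genes without a read counted as 0 where tumors were ranked or lists summed, and as 3 reads in folds, a choice made after seeing the data. Symbols turned into dates (26) were restored. Of repeated symbols, the gene with the highest mean was used. Levels are means ± SD of 3 tumors, with no test, since there was 1 group. Fold intervals are exact binomial intervals of the reads. Named genes were the 8 members, the 3 most abundant of each list, those without a read, those set beside a member, 2 neighbours on each side of a member, and the 5 most similar profiles; a few of them are not reported here. The lists were signaling genes, other receptors, ligands, cytokines, transcription factors and markers of 11 cell types. Alternatives were scaling, thresholds, pseudocounts, filters and leaving out each tumor. The steps were tested on simulated data. Software was matplotlib 3.10.9, SciPy 1.17.1, NumPy 2.4.6 and pandas 2.3.3, run in Python 3.11.15.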

Additional observations from a re-analysis of the deposited data

How the results depend on the processing

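With median-of-ratios factors and with repeated symbols summed, the means of all 8 genes stayed within 1 SD of the main value. Rescaling each column to sum to 1000000 raised every level by construction: the means became 6.16 (Fcgr1), 4.43 (Fcgr2b), 11.9 (Fcgr3), 8.85 (Fcgr4), 40.8 (Fcer1g), 2.62 (Fcer1a), 9.58 (Fcer2a) and 273 (Fcgrt). With a threshold of 5 FPKM in place of 1, 2 of the 8 genes passed. Leaving out each tumor in turn gave 3 to 7 genes with a mean of at least 1 FPKM and 5 to 7 genes with a 2-fold gap. For this threshold and these sets of tumors, the shares of all genes are not given here. The mean FPKM then ranged from 0.516 to 1.75 for Fcgr1, 0.585 to 1.11 for Fcgr2b, 0.949 to 3.24 for Fcgr3, 0.529 to 2.39 for Fcgr4, 5.17 to 10.6 for Fcer1g, 0.0455 (the listed value of no read) to 0.725 for Fcer1a, 1.18 to 2.71 for Fcer2a and 49.0 to 61.4 for Fcgrt. The ratio of Fcgr2b to the activating receptors ranged from 0.136 to 0.478 and that of Fcer1g from 1.78 to 2.86. Without a filter on low values, the shares of all genes highest in tumors 1, 2 and 3 were 29.9%, 21.6% and 8.83% in place of 49.9%, 33.5% and 15%. The share with a 2-fold gap was then 26.6% in place of 43.1%, that highest in tumor 1 and lowest in tumor 3 was 11.9% in place of 21.2%, and that highest in tumor 3 and lowest in tumor 2 was 4.63% in place of 8.11%. With genes without a read kept at their deposited value, an alternative added after seeing the data, the shares highest in tumors 1 and 2 were 49.8% and 35.3%. The number of Fc receptor genes highest in each tumor was the same under both rescalings and with repeated symbols summed.

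No paired analysis was possible because values were used from 1 group only and no test was made. Few reads lie behind some levels: 4 to 17 for Fcgr1, Fcgr3 and Fcgr4 in tumor 3, 17 for Fcgr4 in tumor 2, and none for Fcer1a in tumors 2 and 3. The ratios to each of the 17 macrophage markers, the share of all genes with a read in every tumor, the counts of Fc receptor genes with a read in every tumor and the B-cell sum without Cd22 were added after seeing the data.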
